A study of Mus musculus with 12 samples.

Results

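The transcripts described here come from 7 loci named as long noncoding RNA loci of neutrophils, namely F730016J06Rik, A530040E14Rik, AC139157.1, Gm36328, 4930463O16Rik, Neat1 and Malat1. They were picked by symbol among the 55335 genes listed in the count files, and each symbol matched 1 Ensembl identifier. The symbols had been chosen because of their levels in these same libraries, so their differences between groups are given as a description with no test. The name holds for 6 of the 7 loci, which GENCODE M21 lists among its long noncoding RNA genes, whereas AC139157.1 is annotated as a processed pseudogene.

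The study sequenced total RNA, depleted of ribosomal RNA, of neutrophils from 10-week-old FVB mice kept in SOPF (specific and opportunistic pathogen free) housing, with 4 mice and 4 libraries per group. PyMT TANs (tumor-associated neutrophils) came from mammary tumors of PyMT mice, in which a transgene drives the middle T antigen of polyoma virus, an oncogene, in mammary epithelium. PyMT-Cxcr2-/- TANs came from mammary tumors of PyMT mice without the chemokine receptor Cxcr2, which is lost in every cell of the animal and not in neutrophils alone. These PyMT-Cxcr2-/- mice had been backcrossed to FVB. WT BM neutrophils came from the bone marrow of WT mice without tumors, so tissue, tumor and transgene cannot be told apart in any comparison with this group. All cells were enriched for CD11b and sorted as CD45+ CD11b+ Ly6G+ F4/80- cells. These are bulk samples, in which fewer cells of a type and less RNA per cell cannot be told apart.

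Long noncoding RNAs are transcripts without a known protein product, and many are kept in the nucleus. Neat1 is the architectural RNA of paraspeckles, nuclear bodies that form around its long isoform. Malat1 is an abundant RNA of nuclear speckles, which store splicing factors, and its 3′ end is matured by RNase P. The other 5 loci have no established function that could be stated here, and most are known by position alone. Neutrophils mature in the bone marrow, where granule proteins are made before the cells are released.

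Cxcr2, the genotype check, was at 1043 to 1523 CPM (counts scaled to library size with TMM factors, the unit of all levels below) in PyMT TANs and at 8.82 to 10.0 CPM in PyMT-Cxcr2-/- TANs. It was at 1823 to 2252 CPM in WT BM neutrophils. Total counts on genes were between 25032704 and 51351569 per library, so that 3 counts, taken as the smallest level the depth can show, correspond to 0.0584 to 0.12 CPM before TMM scaling, which covers counting error only. The summed level of 9 neutrophil markers was 10575 to 16889 CPM in PyMT TANs, 18300 to 29983 CPM in PyMT-Cxcr2-/- TANs and 78332 to 103553 CPM in WT BM neutrophils. The summed level of 8 macrophage markers was 1366 to 2808, 1348 to 2309 and 197.7 to 285.1 CPM in the same order, and that of 9 epithelial markers was 41.5 to 460.3, 78.6 to 301.5 and 0 to 0.115 CPM. Krt8, Krt5, Krt14, Csn2, Csn3, Cldn3 and Cldn4 had 0 counts in all WT BM neutrophils. In bone marrow the largest members of the neutrophil sum, which includes Cxcr2, were S100a9 (28467 to 41382 CPM) and S100a8 (25240 to 31156 CPM). Csf3r, also included, was at 2977 to 4738 (PyMT), 4082 to 5373 (PyMT-Cxcr2-/-) and 3799 to 4322 CPM (bone marrow). Against bone marrow, 8 of the 9 passed the thresholds given below in each TAN group. What this sum says of the share of neutrophils was not tested. The part of other cell types in the levels of the 7 loci was not tested.

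**Figure D1:**
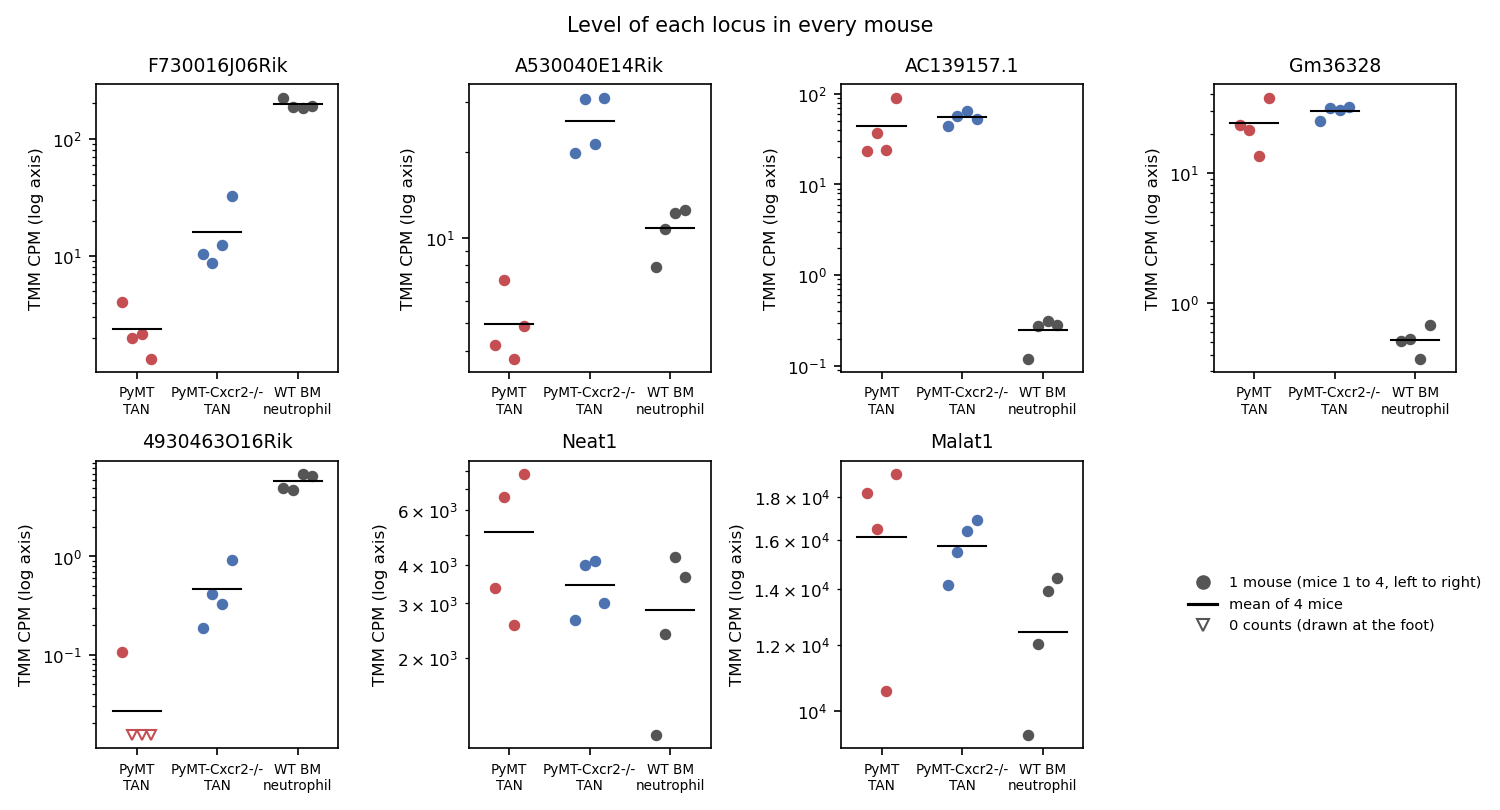
Level of each of the 7 loci in TMM CPM (log axis, scaled per panel) in every mouse, by group, with mice 1 to 4 from left to right, the mean of 4 mice as a line and libraries at 0 counts as open triangles at the foot. F730016J06Rik and 4930463O16Rik were highest in WT BM neutrophils, AC139157.1 and Gm36328 were lowest there, A530040E14Rik was highest in PyMT-Cxcr2-/- TANs, and the groups overlapped for Neat1 and Malat1.

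In their levels the loci fell into those that were higher in bone marrow (F730016J06Rik and 4930463O16Rik), those that were far higher in TANs (AC139157.1 and Gm36328), 1 that was highest without Cxcr2 (A530040E14Rik) and the abundant pair Neat1 and Malat1. Between PyMT-Cxcr2-/- and PyMT TANs, 6 of the 7 loci passed the filter on low counts and 2 passed the thresholds (Benjamini-Hochberg adjusted p under 0.05 over all genes in edgeR's quasi-likelihood test, and a fold change of 1.5 or more), both higher in PyMT-Cxcr2-/- TANs. Among all 18463 genes tested there, 1.98% (365) passed, 1.38% higher and 0.596% lower. That count ran from 23 to 513 when 1 mouse was left out, at 23 without PyMT mouse 2, 189 without PyMT mouse 4, and 213, 227, 83 and 96 without PyMT-Cxcr2-/- mice 1, 2, 3 and 4. Against WT BM neutrophils, 5 of 7 passed in PyMT TANs, 2 higher and 3 lower, where 53.3% of all tested genes passed, 30.1% higher and 23.2% lower. In the same comparison of PyMT-Cxcr2-/- TANs, 5 of 7 passed, 3 higher and 2 lower, where 59.5% of genes passed, 34.4% higher and 25.1% lower. The levels of the TAN groups did not overlap for 3 loci, all higher without Cxcr2, and among all tested genes 6.33% were higher and 5.70% lower without overlap. Against bone marrow 2 loci were higher and 3 lower without overlap in PyMT TANs (28.8% and 29.5% of genes), and 3 higher and 2 lower in PyMT-Cxcr2-/- TANs (32.2% and 33.8%). The choice of the loci fixed these counts, which are a description and from which nothing is read.

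Per exon length, the scale on which different loci can be compared, Malat1 stood first in all groups and Neat1 second. In PyMT TANs they were followed by AC139157.1 (73.7 ± 53.7 CPM per kb), Gm36328 (55.4 ± 23.6 CPM per kb), A530040E14Rik (2.15 ± 0.641 CPM per kb), F730016J06Rik (0.348 ± 0.172 CPM per kb) and 4930463O16Rik (0.0126 CPM per kb). Without Cxcr2 the order was the same, at 92.1 ± 14.4, 68.8 ± 7.60, 11.1 ± 2.59, 2.33 ± 1.63 and 0.222 ± 0.154 CPM per kb. In bone marrow F730016J06Rik (28.5 ± 2.80 CPM per kb) came next, before A530040E14Rik (4.67 ± 0.920 CPM per kb), 4930463O16Rik (2.79 ± 0.543 CPM per kb), Gm36328 (1.20 ± 0.284 CPM per kb) and AC139157.1 (0.418 ± 0.147 CPM per kb). AC139157.1 and Gm36328 did not differ beyond their spread in PyMT TANs.

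**Figure D2:**
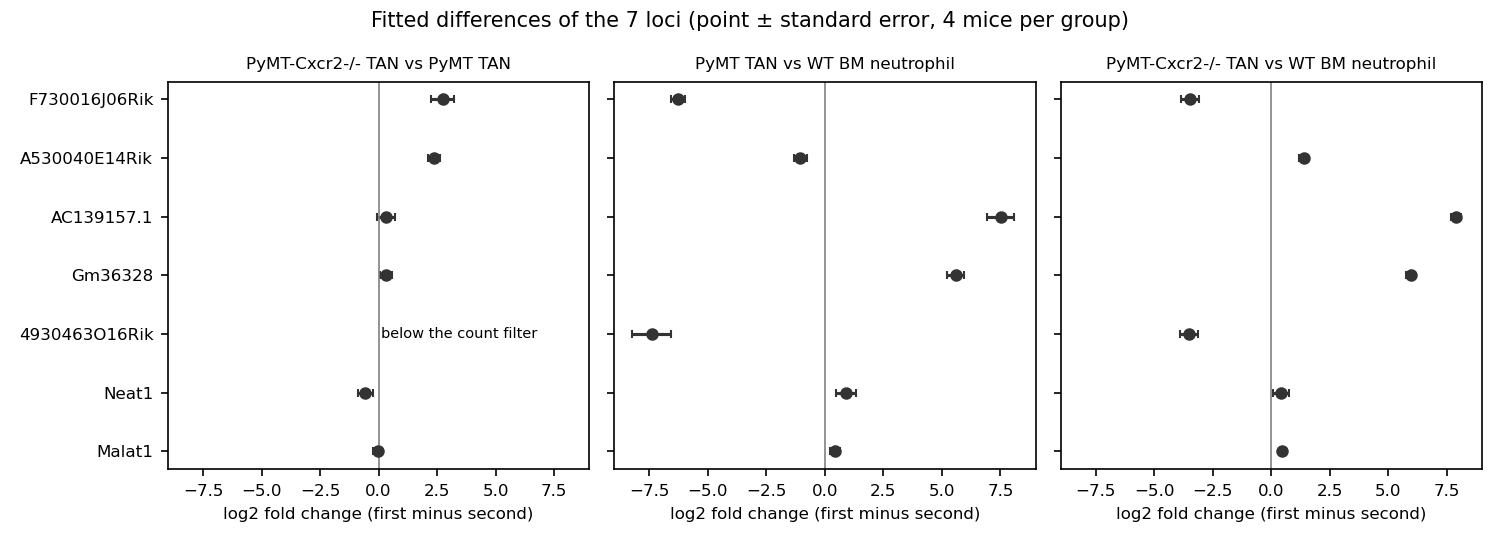
Log2 fold change (first group minus second) of the 7 loci in each of the 3 comparisons, from edgeR fits on 4 mice per group, as a point with its standard error. The comparisons with WT BM neutrophils share those libraries, and 4930463O16Rik is missing from the first panel because it was below the filter on low counts.

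F730016J06Rik (ENSMUSG00000086425) is a lincRNA at chr2:28095477-28127731 on the plus strand of mm10, with 6880 bases of exon, and its exons overlap no other annotated gene. In WT BM neutrophils it was at 224.3, 186.0, 181.9 and 191.8 CPM in mice 1 to 4, with a mean of 196.0 ± 19.3 CPM (SD, n = 4). In PyMT TANs it was at 4.09, 2.003, 2.15 and 1.33 CPM, with a mean of 2.39 ± 1.18 CPM. In PyMT-Cxcr2-/- TANs it was at 10.5, 8.67, 12.3 and 32.7 CPM, with a mean of 16.03 ± 11.2 CPM. The 3 groups did not overlap, and the order from low to high was PyMT TANs, PyMT-Cxcr2-/- TANs and WT BM neutrophils. Its log2 fold change was -6.29 (SE 0.31) in PyMT TANs against bone marrow, -3.48 (SE 0.40) in PyMT-Cxcr2-/- TANs against bone marrow and 2.74 (SE 0.48) in PyMT-Cxcr2-/- against PyMT TANs. Mouse 4 of the PyMT-Cxcr2-/- group stood above the other 3, and without it the last value was 2.14.

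The summed level of 8 markers of immature neutrophils, nearly all of it from the granule genes Ltf, Ngp and Camp, was highest in the same group and the same PyMT-Cxcr2-/- mouse as F730016J06Rik. It was 410.0 to 692.5 CPM in PyMT TANs, 28697 to 45588 CPM in WT BM neutrophils, and 1879, 2514, 2245 and 6267 CPM in mice 1 to 4 of the PyMT-Cxcr2-/- group. Of these 8 markers, 3 passed the thresholds between the TAN groups and 8 in each comparison with bone marrow. In that list Elane, which encodes neutrophil elastase and marks the earliest granules, was at no more than 1.01 CPM in PyMT TANs, no more than 0.661 CPM in PyMT-Cxcr2-/- TANs and at 7.39 to 17.3 CPM in bone marrow. The early granule genes Mpo (2.03 ± 2.33 CPM in PyMT and 0.763 ± 0.503 CPM in PyMT-Cxcr2-/- TANs) and Prtn3 (1.60 ± 1.28 and 1.18 ± 0.412 CPM) were not higher on average without Cxcr2, nor were Elane and Ctsg. Those higher on average without Cxcr2 were Ltf (268.3 CPM in PyMT and 1480 CPM in PyMT-Cxcr2-/- TANs), Ngp (245.9 and 1493 CPM), Camp (38.0 and 243.9 CPM) and Cebpe (2.48 and 7.75 CPM). Cebpe was at 18.7 CPM in mouse 4 of the PyMT-Cxcr2-/- group. The part of immature cells in the level of F730016J06Rik was not tested.

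4930463O16Rik (ENSMUSG00000020033) is a lincRNA at chr10:84488293-84497435 on the plus strand, with 2088 bases of exon and no overlapping gene. In WT BM neutrophils it was at 4.98, 4.73, 6.94 and 6.67 CPM, a mean of 5.83 ± 1.13 CPM. In PyMT-Cxcr2-/- TANs it was at 0.188, 0.41, 0.33 and 0.924 CPM, a mean of 0.463 ± 0.321 CPM. In PyMT TANs it had 5 counts (0.105 CPM) in mouse 1 and 0 counts in mice 2, 3 and 4. The order of the groups was that of F730016J06Rik, again with no overlap, and mouse 4 was again the PyMT-Cxcr2-/- mouse with the top level. Its log2 fold change against bone marrow was -7.40 (SE 0.83) in PyMT TANs and -3.52 (SE 0.40) in PyMT-Cxcr2-/- TANs. The first of these rests on the 5 counts of PyMT mouse 1, and without that mouse the fitted value was -10.69 against a group with 0 counts, which is no bound. Between the TAN groups it was below the filter and not tested, with 87 counts in the 4 PyMT-Cxcr2-/- libraries and 5 in the 4 PyMT libraries.

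The promoters of both bone marrow loci are shown because the transcripts varied alike over the groups, together with that of A530040E14Rik, which was higher without Cxcr2. Each runs from 250 bases before to 50 after the start given by RefSeq on GRCm38.p6, 5′ to 3′ on the plus strand, at chr2:28095095-28095394, chr10:84488043-84488342 and chr1:85105843-85106142, and capitals mark the only match to a searched motif.
F730016J06Rik: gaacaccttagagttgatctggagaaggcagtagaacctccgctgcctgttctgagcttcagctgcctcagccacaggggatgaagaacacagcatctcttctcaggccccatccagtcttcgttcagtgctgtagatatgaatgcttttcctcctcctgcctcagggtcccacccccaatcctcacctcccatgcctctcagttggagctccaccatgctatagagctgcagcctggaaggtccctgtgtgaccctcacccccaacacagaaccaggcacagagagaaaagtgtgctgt
4930463O16Rik: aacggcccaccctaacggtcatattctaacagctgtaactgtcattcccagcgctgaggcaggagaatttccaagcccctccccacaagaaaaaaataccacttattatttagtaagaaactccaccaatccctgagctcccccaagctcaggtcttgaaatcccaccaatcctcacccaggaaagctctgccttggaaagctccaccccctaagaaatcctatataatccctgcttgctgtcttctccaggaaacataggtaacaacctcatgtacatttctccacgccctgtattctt
A530040E14Rik: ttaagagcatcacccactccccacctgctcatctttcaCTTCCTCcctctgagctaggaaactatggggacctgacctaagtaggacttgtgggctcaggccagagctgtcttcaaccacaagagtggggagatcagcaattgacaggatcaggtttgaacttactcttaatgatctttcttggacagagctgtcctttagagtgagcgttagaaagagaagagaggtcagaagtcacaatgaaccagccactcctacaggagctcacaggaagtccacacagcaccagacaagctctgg

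On both strands of these windows the letters searched were TTGCNNAA (C/EBP), GAGGAAG (PU.1), TGANTCA (AP-1), GGGNNTTCC (NF-kappaB), TGACGTCA (CRE), TTCNNNGAA (STAT), TATAAA (TBP) and CACGTG (E-box). In the same order, 10.8%, 13.5%, 7.93%, 5.72%, 1.88%, 8.47%, 14.2% and 7.24% of 27025 RefSeq promoters of this length hold them. The promoter of A530040E14Rik held CTTCCTC, the reverse complement of the PU.1 letters, at bases 39 to 45 of the window, overlapping no other motif. The windows of F730016J06Rik and 4930463O16Rik held none of these letters. The RefSeq start lay 132 bases from the GENCODE start for F730016J06Rik, 147 for A530040E14Rik and 0 for 4930463O16Rik.

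The genes beside the bone marrow loci varied in part with them. Near F730016J06Rik lie Gm13371, a lincRNA on the opposite strand at 2.0 kb, Fcnb at 10.6 kb, which encodes the complement lectin ficolin B, and Olfm1 at 65.3 kb, which encodes a secreted olfactomedin. Fcnb was at 19.2 to 33.7 CPM in bone marrow, 0 to 1.23 CPM in PyMT TANs and 0.454 to 4.46 CPM in PyMT-Cxcr2-/- TANs, with the 4.46 CPM in mouse 4. It was lower in PyMT TANs (log2 fold change -6.20, SE 0.94, edgeR adjusted p = 0.000176) and in PyMT-Cxcr2-/- TANs (-3.89, SE 0.68, edgeR adjusted p = 0.000818) than in bone marrow. Between the TAN groups it did not pass (2.13, SE 1.35, edgeR adjusted p = 0.529). Gm13371 had 0 counts in the 4 PyMT libraries and was at 1.36 ± 0.157 CPM in bone marrow, at least 17.7-fold higher when each PyMT library is set to 3 counts. Olfm1 went the other way, from 0.708 ± 0.261 CPM in bone marrow to 8.47 ± 2.52 CPM in PyMT TANs (log2 fold change 3.64, SE 0.38, edgeR adjusted p = 1.18e-05).

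Near 4930463O16Rik lie 1700092E16Rik, an unclassified transcript on the same strand at 1.4 kb, Ckap4 at 28.9 kb, which encodes a membrane protein of the endoplasmic reticulum, and Nuak1 at 47.7 kb, which encodes a kinase related to AMPK. 1700092E16Rik was at 2.32 to 3.63 CPM in bone marrow, 0.0257 to 0.267 CPM in PyMT-Cxcr2-/- TANs and had 1 count in the 4 PyMT libraries. It was lower than in bone marrow in PyMT-Cxcr2-/- TANs (log2 fold change -4.29, SE 0.44, edgeR adjusted p = 1.62e-06). Reads that run on from 4930463O16Rik into this transcript were not examined.

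Ckap4 followed the same order of groups. It was at 83.4, 67.1, 83.5 and 34.3 CPM in PyMT TANs, at 171.0, 156.7, 207.9 and 345.5 CPM in PyMT-Cxcr2-/- TANs and at 961.2 to 1467 CPM in bone marrow. The TAN groups did not overlap, and the top PyMT-Cxcr2-/- level was again in mouse 4. It was higher in PyMT-Cxcr2-/- than in PyMT TANs (log2 fold change 1.71, SE 0.31, edgeR adjusted p = 0.021), a call that was lost without PyMT-Cxcr2-/- mouse 4 (1.43) or mouse 3 (1.75) and without PyMT mouse 2 (1.72) or mouse 3 (1.84). Nuak1 was higher in both TAN groups than in bone marrow, with log2 fold changes of 1.54 (SE 0.38, edgeR adjusted p = 0.00446) in PyMT TANs and 1.72 (SE 0.31, edgeR adjusted p = 0.000257) in PyMT-Cxcr2-/- TANs.

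**Figure D3:**
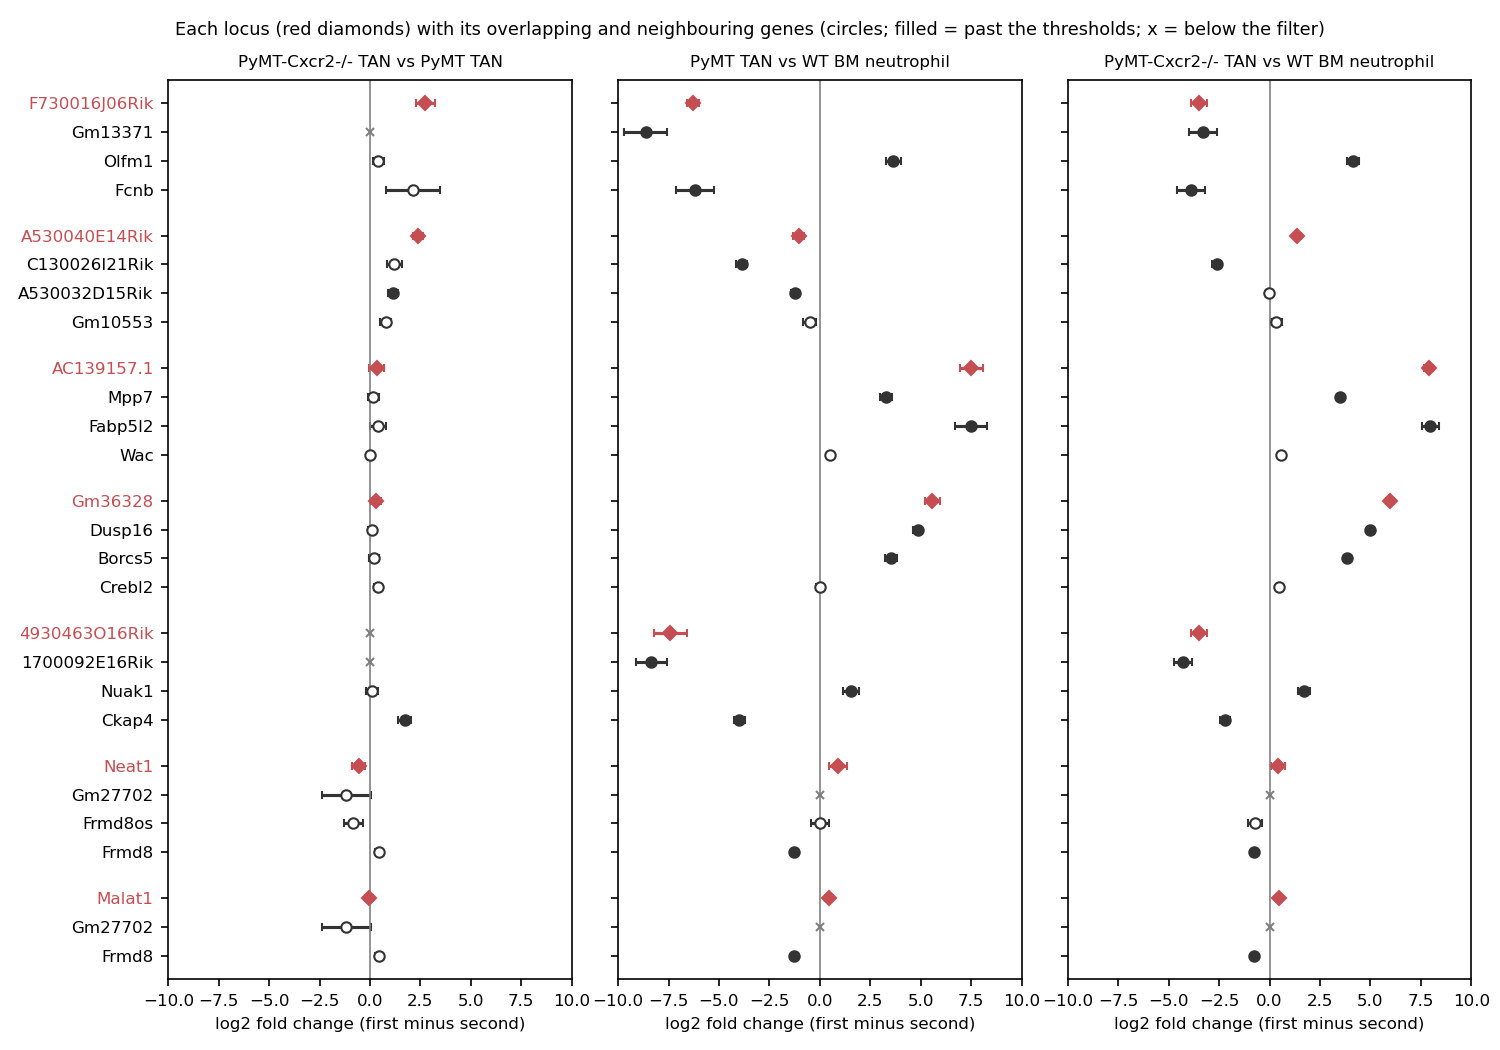
Log2 fold change with its standard error of each locus (red diamonds) and of the genes that overlap it or lie next to it (circles, filled where past the thresholds, crosses where below the filter) in the 3 comparisons. Genes below the filter in all 3 comparisons, and any gene not reported here, are left out. Against WT BM neutrophils, Fcnb, Gm13371, Ckap4 and 1700092E16Rik lie on the same side of 0 as the bone marrow loci beside them, and Olfm1 and Nuak1 on the other.

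A530040E14Rik (ENSMUSG00000072109) is annotated as antisense at chr1:85105946-85114035 on the plus strand, with 2323 bases of exon, 10.94 Mb from Cxcr2 on the same chromosome. In PyMT TANs it was at 4.19, 7.10, 3.75 and 4.89 CPM, a mean of 4.98 ± 1.49 CPM. In PyMT-Cxcr2-/- TANs it was at 19.8, 30.8, 21.3 and 31.0 CPM, a mean of 25.7 ± 6.01 CPM. In WT BM neutrophils it was at 7.85, 10.7, 12.2 and 12.5 CPM, a mean of 10.8 ± 2.14 CPM. The groups did not overlap, and PyMT-Cxcr2-/- TANs were above and PyMT TANs below bone marrow. Its log2 fold change was 2.36 (SE 0.26) in PyMT-Cxcr2-/- against PyMT TANs and stayed between 2.26 and 2.59 when any 1 mouse was left out. It was -1.05 (SE 0.26) in PyMT TANs and 1.38 (SE 0.19) in PyMT-Cxcr2-/- TANs against bone marrow. Sequence passed on beside the Cxcr2 allele during the backcross was not examined. At this locus and the genes that overlap it, such sequence cannot be told apart from loss of Cxcr2.

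The counts of A530040E14Rik are uncertain because of the genes around it. It shares 343 bases of exon with C130026I21Rik on the opposite strand and its span overlaps that of A530032D15Rik, also opposite, both protein-coding. Its longest transcript matches transcripts of 39 other genes over at least 150 bases at 90% identity or more, the longest match being 372 bases of Gm10552 at 100% identity. Gm10553, the gene on its lower side at 5.4 kb, was at 6.45 ± 2.31 CPM in bone marrow, 4.34 ± 1.13 CPM in PyMT TANs and 7.45 ± 1.31 CPM without Cxcr2, and passed the thresholds in no comparison. On its higher side, Gm16038 at 1.3 kb and G530012D18Rik at 461.6 kb were at or under 1.64 CPM in every library and below the filter.

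Both overlapping genes were higher in bone marrow than in PyMT TANs, and their order of groups differed from that of the locus. C130026I21Rik was at 34.7 ± 4.92 CPM in bone marrow, 5.16 ± 1.80 CPM in PyMT-Cxcr2-/- and 2.23 ± 0.862 CPM in PyMT TANs. Between the TAN groups it did not pass the thresholds (log2 fold change 1.20, SE 0.38, edgeR adjusted p = 0.136). A530032D15Rik was at 26.4 ± 1.61, 23.7 ± 5.09 and 10.7 ± 3.04 CPM in the same order. It was higher in PyMT-Cxcr2-/- than in PyMT TANs (log2 fold change 1.14, SE 0.24, edgeR adjusted p = 0.0355), a call that was lost without PyMT mouse 2 (1.03) or mouse 3 (1.06) and without PyMT-Cxcr2-/- mouse 2 (1.17), mouse 3 (1.09) or mouse 4 (1.08). Per length, A530040E14Rik was at 39.1 to 72.3% of C130026I21Rik in bone marrow, 204 to 797% in PyMT TANs and 675 to 1029% without Cxcr2.

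AC139157.1 (ENSMUSG00000117556) is a processed pseudogene of 595 bases at chr18:7548987-7549581 on the plus strand, inside an intron of Mpp7, which lies on the opposite strand and encodes a scaffold of cell polarity. Its transcript matches Mad2l1, which encodes a spindle checkpoint protein, over 571 bases at 92.1% identity. In PyMT TANs it was at 23.2, 37.3, 24.1 and 90.7 CPM, a mean of 43.8 ± 31.9 CPM. In PyMT-Cxcr2-/- TANs it was at 44.4, 56.5, 65.1 and 53.2 CPM, a mean of 54.8 ± 8.54 CPM. In WT BM neutrophils it was at 0.12, 0.278, 0.315 and 0.28 CPM, which are 4, 9, 11 and 10 counts. The TAN groups overlapped, with PyMT mouse 4 above all other mice, and both lay far above bone marrow. Its log2 fold change against bone marrow was 7.51 (SE 0.58) in PyMT TANs and 7.90 (SE 0.22) in PyMT-Cxcr2-/- TANs. Between the TAN groups it was 0.32 (SE 0.39), and 0.96 without PyMT mouse 4.

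Gm36328 (ENSMUSG00000108196) is annotated as antisense at chr6:134754246-134755192 on the plus strand, with 432 bases of exon, inside an intron of Dusp16, which lies on the opposite strand and encodes a phosphatase of the MAP kinases JNK and p38. In PyMT TANs it was at 23.2, 21.4, 13.4 and 37.8 CPM, a mean of 23.9 ± 10.2 CPM. In PyMT-Cxcr2-/- TANs it was at 24.9, 31.4, 30.2 and 32.2 CPM, a mean of 29.7 ± 3.28 CPM. In WT BM neutrophils it was at 0.51, 0.526, 0.373 and 0.673 CPM, which are 17, 17, 13 and 24 counts. As for AC139157.1, the TAN groups overlapped, PyMT mouse 4 was at the top, and bone marrow lay far below. Its log2 fold change against bone marrow was 5.58 (SE 0.37) in PyMT TANs and 5.96 (SE 0.20) in PyMT-Cxcr2-/- TANs. Between the TAN groups it was 0.31 (SE 0.26), which turned to -0.03 when the trend with GC content and gene length was removed. That setting moved the median of all genes by -0.125, and relative to that move the value was 0.099.

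The genes that hold AC139157.1 and Gm36328 in their introns were also higher in TANs. Mpp7 was at 307.3 to 868.8 CPM in PyMT TANs, 457.2 to 674.5 CPM in PyMT-Cxcr2-/- TANs and 48.9 to 60.0 CPM in bone marrow, with PyMT mouse 4 at 868.8 CPM. Its log2 fold change against bone marrow was 3.28 (SE 0.30, edgeR adjusted p = 3.98e-06) in PyMT TANs and 3.51 (SE 0.14, edgeR adjusted p = 5.2e-10) in PyMT-Cxcr2-/- TANs. Dusp16 was at 471.6 to 846.1 CPM in PyMT TANs, 634.2 to 800.3 CPM in PyMT-Cxcr2-/- TANs and 22.6 to 25.4 CPM in bone marrow. It also passed in both comparisons with bone marrow, with log2 fold changes of 4.84 (SE 0.20, edgeR adjusted p = 2.94e-08) and 4.998 (SE 0.12, edgeR adjusted p = 2.82e-11). Neither gene passed between the TAN groups.

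Set per exon length against the gene around it, AC139157.1 was at 7.60 to 19.3% of Mpp7 in bone marrow, 208 to 354% in PyMT TANs and 324 to 330% without Cxcr2. Gm36328 was at 26.4 to 53.6% of Dusp16 in bone marrow, 51.1 to 80.7% in PyMT TANs and 70.9 to 87.0% without Cxcr2. The share thus differed between TANs and bone marrow for AC139157.1 by much more than between mice, and for Gm36328 the ranges of PyMT TANs and bone marrow overlapped.

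Whether reads of the opposite strand entered these counts was examined over genes that lie whole in an intron of 1 protein-coding gene. Genes with 1 exon were used where that protein-coding gene was at 50 CPM or more. In PyMT TANs, the 201 such genes on the opposite strand had a median level per length of 14.6% of that gene, and the 357 on its own strand 18.7%. Without Cxcr2 the medians were 13.96% and 17.9%, and in bone marrow 13.3% and 16.2%. The library kit keeps strand, but the strand setting of the counting is not given in the sources used here. The upper quartiles of the genes on the opposite strand were 28.8% in PyMT TANs, 29.7% without Cxcr2 and 23.2% in bone marrow. AC139157.1 against Mpp7 lay above these in every TAN library and below in every bone marrow library. Gm36328 against Dusp16 lay above them in every library of all groups, but it has 2 exons, and Dusp16 was under 50 CPM in bone marrow. A530040E14Rik is no such gene, since it has 7 exons, shares exon bases with C130026I21Rik and overlaps A530032D15Rik. C130026I21Rik was also under 50 CPM in all groups, so these quartiles are no scale for A530040E14Rik. The part of opposite-strand reads in the counts of these 3 loci was not tested.

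Further from the loci, Fabp5l2, a processed pseudogene that lies 31.9 kb from AC139157.1 and also within the span of Mpp7, showed the same order of groups as AC139157.1. It was at 11.01 to 46.4 CPM in PyMT TANs, 23.97 to 37.0 CPM in PyMT-Cxcr2-/- TANs and 0 to 0.344 CPM in bone marrow. It was higher than in bone marrow in PyMT TANs (log2 fold change 7.50, SE 0.78, edgeR adjusted p = 1.09e-05) and in PyMT-Cxcr2-/- TANs (7.96, SE 0.42, edgeR adjusted p = 1.23e-08). Wac at 319.3 kb, which encodes an adaptor of histone ubiquitination, passed in no comparison, with means between 150.2 and 202.5 CPM, and Armc4 at 251.1 kb was at no more than 0.126 CPM. Beside Gm36328, Borcs5 at 43.1 kb, which encodes a subunit of a complex that positions lysosomes, rose from 3.21 ± 0.595 CPM in bone marrow to 35.8 ± 13 CPM in PyMT TANs (log2 fold change 3.54, SE 0.29, edgeR adjusted p = 1.96e-06). Crebl2 at 74962 bases, which encodes a bZIP protein, was at 40.1 ± 4.54 CPM in bone marrow, 38.9 ± 9.72 CPM in PyMT TANs and 50.3 ± 5.16 CPM without Cxcr2 and passed in no comparison.

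**Figure D4:**
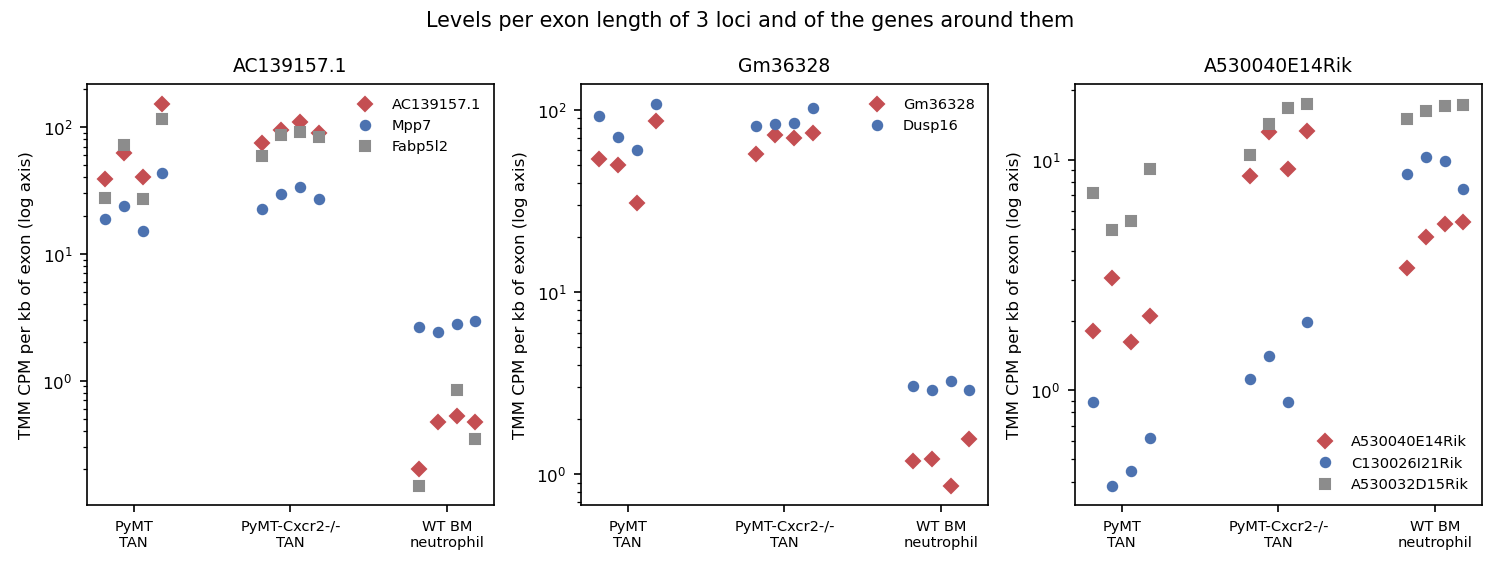
Level per exon length (TMM CPM per kb, log axis) of AC139157.1, Gm36328 and A530040E14Rik (red diamonds) and of the genes that overlap them, and of Fabp5l2, in every mouse, by group, with mice 1 to 4 from left to right and values of 0 not drawn. AC139157.1 lies above Mpp7 in all TAN libraries and below it in all WT BM libraries, and Gm36328 lies below Dusp16 in all 12 libraries.

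Malat1 (ENSMUSG00000092341) lies at chr19:5795690-5802672 and Neat1 (ENSMUSG00000092274) at chr19:5824708-5845478, both on the minus strand, and their merged exons cover the whole span of 6983 bases and 20771 bases. Malat1 was at 18201, 16499, 10563 and 19161 CPM in mice 1 to 4 of the PyMT group, at 14128, 15469, 16378 and 16891 CPM in PyMT-Cxcr2-/- TANs and at 9366, 12035, 13912 and 14415 CPM in WT BM neutrophils. It made up 0.705 to 1.23% of the counts on genes in bone marrow, 1.24 to 2.36% in PyMT TANs and 1.53 to 1.70% without Cxcr2. Ranked among all genes by counts, it was at rank 1 to 3 in PyMT TANs, at rank 2 in each PyMT-Cxcr2-/- library and at rank 4 to 11 in bone marrow. The groups overlapped, with the means in the order of bone marrow (12432 ± 2286 CPM), PyMT-Cxcr2-/- TANs (15717 ± 1212 CPM) and PyMT TANs (16106 ± 3856 CPM), and the TAN groups did not differ beyond their spread.

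Neat1 was at 3376, 6598, 2554 and 7845 CPM in PyMT TANs, at 2653, 4000, 4116 and 3009 CPM in PyMT-Cxcr2-/- TANs and at 1127, 2398, 4252 and 3653 CPM in WT BM neutrophils. Its means were in the same order as for Malat1, 2857 ± 1388 CPM in bone marrow, 3445 ± 724.5 CPM without Cxcr2 and 5093 ± 2532 CPM in PyMT TANs, and no pair of groups was free of overlap. PyMT mice 2 and 4 were above all other mice. Per length, Malat1 was at 1780 ± 327.4 to 2306 ± 552.2 CPM per kb in the group means and Neat1 at 137.6 ± 66.8 to 245.2 ± 121.9 CPM per kb. The counts do not separate the short from the long isoform of Neat1. Stretches of at least 150 bases at 90% identity or more were shared by Neat1 with 114 other genes, the longest being 191 bases, and by Malat1 with 278, the longest being 453 bases of Gm37376 at 100% identity, its own opposite strand, whereas F730016J06Rik, Gm36328 and 4930463O16Rik shared none.

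Against bone marrow, the log2 fold change of Neat1 was 0.90 (SE 0.42) in PyMT TANs and 0.41 (SE 0.34) in PyMT-Cxcr2-/- TANs, and that of Malat1 was 0.44 (SE 0.21) and 0.47 (SE 0.17). Between the TAN groups they were -0.57 (SE 0.32) for Neat1 and -0.04 (SE 0.19) for Malat1, the latter changing sign with 6 of 17 alternative settings. With the trend of GC content and gene length removed, the median of all genes against bone marrow moved by -0.39 in PyMT TANs and -0.64 in PyMT-Cxcr2-/- TANs. The values of Neat1 were then -0.08 and -0.75 and those of Malat1 -0.04 and -0.15, which relative to that move are 0.31 and -0.11 for Neat1 and 0.35 and 0.49 for Malat1. No direction against bone marrow can therefore be given for Neat1 in PyMT-Cxcr2-/- TANs.

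The order of mice by Neat1 was the same as their order by the share of the library that HTSeq assigned to no feature, in each of the 3 groups. This share was 47.2, 49.7, 39.9 and 52.5% in mice 1 to 4 of the PyMT group, 45.6, 47.7, 48.7 and 47.4% in the PyMT-Cxcr2-/- group and 32.0, 36.0, 42.4 and 40.3% in WT BM neutrophils. Of the 11091 genes whose log2 CPM averaged 1 or more, 12 (0.108%) had this order in all 3 groups. Malat1 had it in none, although in each group the mouse with the smallest share also had the lowest Malat1 level. What this share has to do with the level of Neat1 was not tested.

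**Figure D5:**
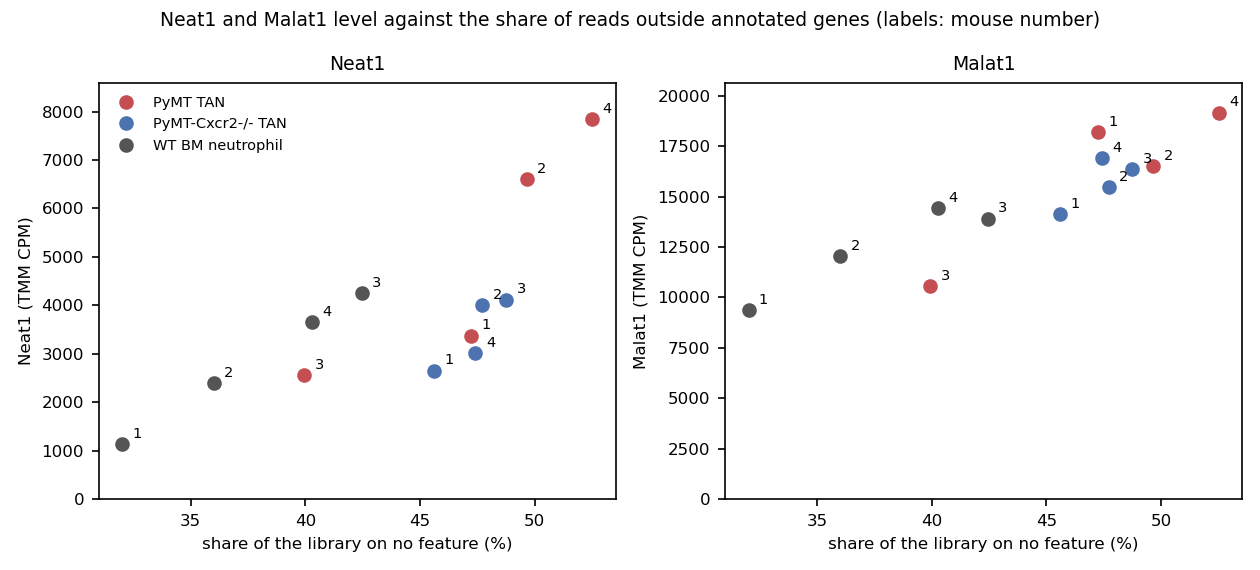
Level of Neat1 (left) and Malat1 (right) in TMM CPM against the share of the library that HTSeq assigned to no feature, in percent. Each point is 1 mouse, labelled with its number and coloured by group. Within each group Neat1 rises with the share from 1127 to 4252 CPM in WT BM neutrophils, 2653 to 4116 CPM in PyMT-Cxcr2-/- TANs and 2554 to 7845 CPM in PyMT TANs.

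The annotated short transcripts within Neat1 (Gm27533, Gm27505 and Gm28006) and Malat1 (Gm27694), and Gm37376 opposite Malat1, share all their bases with these loci and had 0 counts in the 12 libraries. HTSeq sets reads that fit several genes apart as ambiguous (1.92 to 2.92% of a library). The 0 counts of the short transcripts, which lie on the strand of these loci, therefore cannot show absence. For Gm37376 this depends on the strand setting of the counting, which is not given. Frmd8, a protein-coding gene, lies at 4.2 kb from Neat1 and 47.0 kb from Malat1. It was lower than in bone marrow (152.7 ± 21.4 CPM) in PyMT TANs (60.5 ± 13.4 CPM, log2 fold change -1.27, SE 0.17, edgeR adjusted p = 8.31e-05) and in PyMT-Cxcr2-/- TANs (82.7 ± 10.3 CPM, -0.75, SE 0.12, edgeR adjusted p = 7.31e-05). Frmd8os, antisense at 145 bases from Neat1, was at 0.847 to 3.78 CPM over the 12 libraries and passed in no comparison.

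Over all 28 genes that overlap or lie next to the loci, 2 of 17 tested were higher in PyMT-Cxcr2-/- than in PyMT TANs (A530032D15Rik and Ckap4) and 0 were lower, against 1.98% of all genes. The median log2 fold change was 0.37, and -0.07 over all tested genes. Against bone marrow, 13 of 18 passed in PyMT TANs, 6 higher and 7 lower, with a median of -0.09, and 12 of 18 in PyMT-Cxcr2-/- TANs, 6 higher and 6 lower, with a median of 0.16. Over all genes 53.3% and 59.5% passed, with medians of 0.09 in both. The neighbours were taken from loci chosen on these same libraries, and A530032D15Rik overlaps A530040E14Rik, so these counts are a description only.

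Of 68 other characterised long noncoding RNAs listed for comparison, 65 were in the files, and of the 46 tested 0 passed with edgeR (11 had an unadjusted p under 0.05), 4 passed with DESeq2 and 3 when the 12 libraries were fitted together, with a median log2 fold change of -0.27. Over all 18463 genes the median was -0.07, 1.98% passed and 2800 had an unadjusted p under 0.05. Those with the most reads were Mirt1, which is induced after cardiac infarction (254.2 ± 58.0 CPM in PyMT and 289.7 ± 37.4 CPM in PyMT-Cxcr2-/- TANs), Tug1 (199.4 ± 48.1 and 142.4 ± 17.6 CPM) and Lncpint, a target of p53 (146.8 ± 26.6 and 178.8 ± 8.32 CPM). Of the 16 hosts of small nucleolar RNAs tested, 14 had a negative fold change, with a median of -0.47, and 0 passed (7 had an unadjusted p under 0.05). Over all 18463 genes, 8116 had a positive fold change. Positive ones were seen for 5 of 9 microRNA hosts and 6 of 12 other nuclear or cytoplasmic RNAs. They were also seen for 2 of 4 imprinted or developmental and 1 of 5 myeloid or inflammatory RNAs. Of the 3311 annotated long noncoding RNA genes tested, the loci left out and the characterised ones included, 16 were higher and 16 lower, 0.966%.

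Against bone marrow, 24 of 41 tested characterised long noncoding RNAs passed in PyMT TANs, 16 higher and 8 lower, with a median log2 fold change of 0.35, and 27 of 42 in PyMT-Cxcr2-/- TANs, 18 higher and 9 lower, with a median of 0.13. These are 58.5% and 64.3% of the list, where 53.3% and 59.5% of all genes passed, with medians of 0.09. Lncpint rose from 22.5 ± 4.07 CPM in bone marrow, with log2 fold changes of 2.77 (SE 0.18, edgeR adjusted p = 3.98e-07) in PyMT TANs and 3.12 (SE 0.13, edgeR adjusted p = 9.05e-10) in PyMT-Cxcr2-/- TANs. Kcnq1ot1, an imprinted antisense RNA that silences its neighbours, rose from 9.62 ± 2.81 CPM to 35.4 ± 20.2 CPM in PyMT TANs (log2 fold change 1.95, SE 0.36, edgeR adjusted p = 0.000762), and was at 0.30 and no longer past the thresholds without the trend in GC content and length. Zfas1, a host of small nucleolar RNAs, was higher in PyMT TANs (0.72, SE 0.17, edgeR adjusted p = 0.00335), also lost in that fit (0.40), and Firre, an X-linked RNA of nuclear organisation, in PyMT-Cxcr2-/- TANs (2.09, SE 0.26, edgeR adjusted p = 1.09e-05). The fit without the trend moved the median of all genes in PyMT TANs against bone marrow by -0.39.

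Among those that fell, F630028O10Rik, the host gene of miR-223, a microRNA abundant in neutrophils, went from 1085 ± 126 CPM in bone marrow to 128.5 ± 20.03 CPM in PyMT TANs, and to 138.7 ± 41.9 CPM where Cxcr2 was lacking. Its log2 fold changes were -3.01 (SE 0.16, edgeR adjusted p = 9.83e-08) and -2.84 (SE 0.19, edgeR adjusted p = 3.41e-08). Dleu2, the host of miR-15a and miR-16-1, fell from 171.1 ± 20.5 CPM by 1.56 (SE 0.13, edgeR adjusted p = 1.94e-06) in PyMT TANs and by 1.03 (SE 0.11, edgeR adjusted p = 1.9e-06) in PyMT-Cxcr2-/- TANs on the log2 scale. Mirt1 was lower in PyMT TANs (-0.77, SE 0.17, edgeR adjusted p = 0.00205) and the imprinted Peg13 in PyMT-Cxcr2-/- TANs (-0.74, SE 0.13, edgeR adjusted p = 0.000185). Of all annotated long noncoding RNA genes but the loci, 1199 of 3014 passed in PyMT TANs (39.8%, 631 higher and 568 lower) and 1831 of 3159 in PyMT-Cxcr2-/- TANs (58.0%, 960 higher and 871 lower).

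Of 42 proteins listed as partners of Neat1 and Malat1 (paraspeckle proteins, nuclear speckle proteins and factors of 3′ end processing or stability), 41 were tested between the TAN groups, and 3 were lower and 0 higher in PyMT-Cxcr2-/- TANs, with a median log2 fold change of -0.28. Of all genes 1.98% passed there, 0.596% lower, and the median was -0.07. The 3 were Hnrnph1, a splicing regulator of paraspeckles, at 192.9 ± 20.2 CPM in PyMT and 119.7 ± 14.6 CPM in PyMT-Cxcr2-/- TANs (-0.69, SE 0.14, edgeR adjusted p = 0.0284), Srsf7, a splicing factor of speckles, at 115.9 ± 6.11 and 63.5 ± 4.76 CPM (-0.87, SE 0.12, edgeR adjusted p = 0.0102), and Mettl16, an RNA methyltransferase that binds the 3′ end of Malat1, at 13.2 ± 1.65 and 6.44 ± 1.26 CPM (-1.05, SE 0.22, edgeR adjusted p = 0.0355). The TAN groups did not overlap for any of the 3, which had been picked by a test on these same levels. Of all tested genes, 5.70% were lower without overlap. Without the trend in GC content and length 0 passed, at fold changes of -0.74 for Hnrnph1, -0.93 for Srsf7 and -1.13 for Mettl16. Over all genes that fit made 24 calls and the main fit 365. Of the 8 fits without 1 mouse, that without PyMT mouse 1 left 2 of them and each of the others left 1, Srsf7 being kept in all 8 and Hnrnph1 in none.

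Against bone marrow, 18 of 41 partners passed in PyMT TANs, 14 higher and 4 lower, with a median of 0.28, and 13 of 40 in PyMT-Cxcr2-/- TANs, 7 higher and 6 lower, with a median of 0.09. These are 43.9% and 32.5% of those tested, where 53.3% and 59.5% of all genes passed, with medians of 0.09. Of the 10 tested factors of 3′ end processing or stability, 9 passed in PyMT TANs, 7 higher and 2 lower, where 30.1% of all genes were higher and 23.2% lower. The other 2 kinds of partners passed less often than all genes. They were 6 of 19 paraspeckle proteins (31.6%, 5 higher and 1 lower) and 3 of 12 nuclear speckle proteins (25%, 2 higher and 1 lower). The splicing factors Srsf7 (1.22, SE 0.14, edgeR adjusted p = 2.74e-05) and Srsf6 (0.74, SE 0.12, edgeR adjusted p = 0.000329) were higher in PyMT TANs than in bone marrow. Without the trend in GC content and length, Srsf6 no longer passed (0.39), in a fit that moved the median of all genes by -0.39. Lower in PyMT TANs were Hnrnph3 (-1.24, SE 0.20, edgeR adjusted p = 0.000243), the speckle protein Pnn (-0.98, SE 0.20, edgeR adjusted p = 0.00157) and Pop5, a subunit of RNase P (-1.37, SE 0.20, edgeR adjusted p = 0.000115).

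The partners with the most reads among those higher in PyMT-Cxcr2-/- TANs than in bone marrow were Hnrnpa1 (0.76, SE 0.12, edgeR adjusted p = 7.6e-05), Mettl16 (1.46, SE 0.21, edgeR adjusted p = 3.45e-05) and Srrm2, a scaffold of speckles, at 902.3 ± 71.4 CPM against 634.2 ± 26.3 CPM in bone marrow (0.64, SE 0.11, edgeR adjusted p = 0.00011), which turned to -0.35 without the trend in GC content and length. Mettl16 (0.52) and Hnrnpa1 (0.19) no longer passed in that fit either, and it moved the median of all genes in this comparison by -0.64. Those lower were Hnrnph1 (-0.59, SE 0.13, edgeR adjusted p = 0.00102), Srsf2 (-0.77, SE 0.09, edgeR adjusted p = 4.6e-06) and Hnrnph3 (-1.33, SE 0.15, edgeR adjusted p = 3.29e-06). The value of Hnrnph1 lay close to the fold threshold, and its call was lost in 9 of 17 alternative settings, down to -0.51 without 1 mouse.

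For each locus, the genes with the most similar profile over the 12 libraries were taken as those with the smallest root-mean-square difference of centred log2 CPM, among 11085 other genes. For F730016J06Rik they were Chst13, which encodes a sulfotransferase (0.32), Ngp, a granule protein of neutrophils (0.33), and I830127L07Rik (0.34), and for 4930463O16Rik they were I830127L07Rik (0.51), Ngp (0.51) and Chst13 (0.58). Both loci, which lie on chromosomes 2 and 10, thus had these 3 genes closest, which lie on chromosomes 6 (Chst13), 9 (Ngp) and 15 (I830127L07Rik). Ngp was at 16334 CPM on average in bone marrow, 1493 CPM without Cxcr2 and 245.9 CPM in PyMT TANs.

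For A530040E14Rik the closest genes were Fosl1, which encodes an AP-1 subunit (0.54), Gm44981 (0.55) and Ggt1, which encodes a glutathione hydrolase (0.58), all with means that were highest in PyMT-Cxcr2-/- TANs. For AC139157.1 they were Nr4a3, an orphan nuclear receptor (0.55), Acod1, the enzyme that makes itaconate (0.55), and Adgrl2, an adhesion receptor (0.61), and for Gm36328 Gm47088 (0.32), Slc24a1, a cation exchanger (0.33), and Gm48302 (0.40). For Neat1 they were the antisense RNA Bcas3os1 (0.19), Gm49705 (0.34) and Gm37760 (0.35), and for Malat1 Ccdc174 (0.14), Slc25a18 (0.15) and Oser1 (0.16). These differences in log2 units are over 12 libraries of 3 groups and describe likeness only.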

How the data were processed

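RNA-seq of sorted neutrophils was used, 12 libraries in 3 groups taken from the sample labels. Per the labels and methods, the authors used FastQC and trimming, STAR on mm10, and HTSeq for the deposited counts per gene. The annotation release and strand setting are not given in the sources used here. From the deposited counts, edgeR 4.0.16 (R 4.3.3) quasi-likelihood tests with TMM scaling and filterByExpr were run on the 8 libraries of each comparison, with Benjamini-Hochberg adjustment over all genes and thresholds of 0.05 and 1.5-fold. SE is the log2 fold change divided by the root of the F statistic. HTSeq's classes of unassigned reads, among them the 32.0 to 52.5% with no feature, stayed out of library sizes and tests. Positions come from GENCODE M21 (55154 of 55335 identifiers matched), promoters from RefSeq GRCm38.p6 (no entry used for Neat1, Gm36328 and AC139157.1) and copies from BLAST 2.17.0. Figures were drawn with matplotlib 3.10.9.

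Total counts per library limit precision as given above. Replicates are different mice. The loci and gene lists were chosen with earlier results of these data known. From each list the 3 highest-level genes past the thresholds in each direction were named, or the 3 highest-level genes where none passed, beside all loci and neighbours. Of these genes, 2 are counted in their lists but not reported here by name. The fits were tested on simulated counts. Alternatives were another scaling, other filters, all libraries in 1 fit, DESeq2 1.42.0, no robust estimation, a replicate block, removal of the trend with GC content and length, and leaving out each mouse.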

Additional observations from a re-analysis of the deposited data

Results flagged for a closer look

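In 21 groups of 4 mice (7 loci in 3 groups), 2 held a mouse whose gap to its nearest neighbour took up most of the range of its group. Chance gives about 1 in 20 where values follow a normal distribution, which CPM need not do. F730016J06Rik was at 32.7 CPM in PyMT-Cxcr2-/- mouse 4, and the next mouse was at 12.3 CPM. The same library held the highest summed level of immature neutrophil markers of its group (6267 CPM) and the highest Fcnb (4.46 CPM) and Ckap4 (345.5 CPM), and their part in the value was not tested. 4930463O16Rik was at 0.105 CPM (5 counts) in PyMT mouse 1, and the other 3 mice of the group had 0 counts. With these 3 mice at 0 the gap takes up the whole range whatever the count of mouse 1, so nothing is read from this flag.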

How the results depend on the processing

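Of 340 alternative values of the loci, 313 kept their direction and moved by less than the spread between mice, 12 moved further and 15 changed sign. Of 1155 values of single list genes and neighbours, 1088 kept their call, 63 lost it, 2 gained it and 2 changed sign. Sign changes between the TAN groups were seen for Gm36328 (-0.026, trend of GC content and length removed) and Malat1 (0.0174 with DESeq2 size factors and with DESeq2, 0.0197 without the filter, -0.1887 to 0.076 without 1 mouse). With the GC and length trend removed, first alone and then with the block, PyMT TANs against bone marrow gave -0.0795 and -0.0138 for Neat1 and -0.0364 and -0.0427 for Malat1. PyMT-Cxcr2-/- TANs against bone marrow gave -0.75 and -0.60 for Neat1, -0.15 and -0.14 for Malat1 and -0.35 and -0.36 for Srrm2. This setting moved the median of all genes by -0.125, -0.386 and -0.643 in the 3 comparisons, and the share of calls that were higher from 69.9 to 33.3%, from 56.4 to 45.5% and from 57.9 to 37.3%.

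Counts past the thresholds between the TAN groups moved as follows. Over all genes, 365 passed, 13 with the replicate block, 24 without the GC and length trend and 63 with both. Of the 7 loci, 2 passed, and 1 (A530040E14Rik) with the replicate block, without the GC and length trend and with both, and 1 to 2 without 1 mouse. Neighbours went from 2 to 1 without the filter, 4 with 12 libraries in 1 fit, 0 with the block, without the trend and with both, and 0 to 2 without 1 mouse. Partner proteins went from 3 to 0 with the block, without the trend and with both, and 1 to 2 without 1 mouse. Characterised long noncoding RNAs went from 0 to 3 with 12 libraries and 4 with DESeq2. All annotated long noncoding RNA genes but the loci went from 32 to 52 without the filter, 93 with 12 libraries, 104 with DESeq2, 0 with the block, 2 without the trend, 12 with both and 0 to 35 without 1 mouse. Against bone marrow, partner proteins in PyMT-Cxcr2-/- TANs went from 13 to 25 without the trend, with or without the block. The cause was not tested.

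Mice of the same number did not deviate together (mean r = -0.04 over 12 pairs, 0.01 over 36 pairs of other numbers), so the numbers were not taken as pairs, and the fit with the block made 13 calls over all genes between the TAN groups and that without it 365. Depth limits 4930463O16Rik in TANs and AC139157.1 in bone marrow, which rest on few counts.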
